A study of Rattus norvegicus with 12 samples.

Results

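The neuropeptide genes Nmu, Grp, Nts and Npff, and the genes of their receptors, Nmur1, Nmur2, Grpr, Ntsr1, Ntsr2 and Npffr2, were examined by RNA sequencing of the L5 spinal dorsal horn, in laminae I–II (the superficial layer) and in laminae III–VI (the deep layer). The set was made by matching gene symbols in the deposited count tables, and all 10 genes, 4 ligands and 6 receptors, were found among 32623. The rule itself used gene symbols and no expression value, but the set was proposed with earlier results of these data known. The animals were 8-week-old male Wistar rats heterozygous for the OT-hM3Dq-mCherry transgene, in which the oxytocin (OT) promoter drives hM3Dq, a designer receptor for the ligand clozapine-N-oxide (CNO), fused to the red fluorescent protein mCherry. The groups were laminae I–II after CNO, laminae I–II after Saline, laminae III–VI after CNO and laminae III–VI after Saline, with 3 libraries each. CNO (1 mg per kg) or Saline was given s.c. and tissue was taken 2 h later. The Saline rats carried the transgene too, and no group without it and no transgenic group left uninjected was analysed here. Each layer was cut by laser microdissection from sections pooled within a library, and both layers came from 6 rats, 3 given CNO and 3 given Saline, with the library number of a treatment taken as the rat.

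Spinal excitatory interneurons of the superficial layer carry a set of peptides that act on neighbouring cells through G protein-coupled receptors. Neuromedin U (Nmu), gastrin-releasing peptide (Grp) and neurotensin (Nts) act on receptors that couple mainly to Gq and phospholipase C, whereas the receptor of neuropeptide FF (Npff) couples to Gi and Go and modulates opioid analgesia. In mice, spinal Grp and its receptor Grpr are known for their role in itch, and the neurotensin receptors differ in their cells, Ntsr1 being neuronal and Ntsr2 being found largely in astrocytes.

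Promoter sequences are shown for Nts and Nmur2, the members on which the CNO comparisons turn, and for Nmu, the ligand of Nmur2. RefSeq promoters of the GRCr8 build were matched for 8 of the 10 genes, which leaves Grpr and Npff, and the 250 bases before the start site are printed 5′ to 3′. Capitals mark TGANTCA (the AP-1 motif), TGACNTCA (a cAMP response element with a free base) and TGACG (the core of that element), searched on both strands. The Nts window is chr7:39460889-39461138 on the minus strand, the Nmu window is chr14:32198693-32198942 on the plus strand and the Nmur2 window is chr10:40682680-40682929 on the minus strand.
Nts: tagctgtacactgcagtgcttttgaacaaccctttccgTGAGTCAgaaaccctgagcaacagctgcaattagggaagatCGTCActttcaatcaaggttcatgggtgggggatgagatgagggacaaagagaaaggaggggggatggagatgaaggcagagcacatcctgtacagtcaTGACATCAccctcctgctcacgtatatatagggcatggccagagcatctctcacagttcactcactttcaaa
Nmu: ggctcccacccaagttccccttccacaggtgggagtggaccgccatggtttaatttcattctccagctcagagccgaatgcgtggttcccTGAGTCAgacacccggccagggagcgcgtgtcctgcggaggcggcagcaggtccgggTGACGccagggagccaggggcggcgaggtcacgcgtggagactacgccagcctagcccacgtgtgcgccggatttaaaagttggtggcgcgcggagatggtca
Nmur2: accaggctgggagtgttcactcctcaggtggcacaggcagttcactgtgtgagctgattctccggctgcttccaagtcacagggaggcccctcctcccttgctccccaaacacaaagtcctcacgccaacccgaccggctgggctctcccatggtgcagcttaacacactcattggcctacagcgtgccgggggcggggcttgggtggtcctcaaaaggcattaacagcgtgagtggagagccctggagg
The Nts window held TGANTCA at 212 to 206 bases, TGACG at 171 to 167 bases and TGACNTCA at 72 to 65 bases before the start, with no overlap between them. The Nmu window held TGANTCA at 160 to 154 bases and TGACG at 103 to 99 bases before the start, and GGGCGG (a GC box) at 86 to 81 bases before it. None of the motifs in capitals occurred in the Nmur2 window, which held GGGCGG at 59 to 54 bases before the start. Among the 33469 promoter windows of the same length, 6.34% held TGANTCA, 8.88% held TGACNTCA, 18.2% held TGACG and 30.5% held GGGCGG. These matches describe letters only, and binding was not measured.

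The libraries held between 5245952 and 7889953 counts, and every CNO library of laminae I–II (6095833 to 6576869) was larger than every Saline library of that layer (5245952 to 5694619). Levels are given as CPM (counts scaled to a common library size) after TMM scaling over the 12 libraries, and they are compared between libraries and not between genes, since no gene length entered them. Markers of the layers followed the labels. Of 8 tested markers of the superficial layer 7 were higher in laminae I–II, among them Tac1, Sst, Tac3 and Penk, and all 6 tested markers of the deep layer were lower there, among them Slc6a5, Nefh, Pvalb and Chat. Of 14 tested genes of excitatory neurons 11 were higher in laminae I–II, and Slc17a6, which encodes the vesicular glutamate transporter of these neurons, measured 348 ± 23.6 CPM in laminae I–II, against 368 ± 25.1 CPM in laminae III–VI (SD, n = 6 libraries each). The data are bulk, so the neurons that hold each peptide were not identified, and fewer cells of a type cannot be told apart from less RNA per cell.

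All 4 peptide genes and 3 receptor genes were higher in laminae I–II than in laminae III–VI, by 3.94-fold to 42.2-fold. The fit had a term for each rat and tested 13745 genes, of which 8 were members, because Nmur1 and Ntsr1 had too few counts. At an edgeR adjusted p under 0.05, 7 of the 8 were higher in laminae I–II, where 30.8% of all tested genes were, and 61.6% of all tested genes differed in either direction. In these 7 genes no library of laminae I–II overlapped one of laminae III–VI, which held in the same direction for 16.5% of all tested genes. The median log2 difference was 3.46 over the 4 ligands and 2.85 over the 4 tested receptors, against 0.02 over all tested genes. In this fit Nmu, Grp, Npff, Nmur2, Grpr and Npffr2 passed the low-count filter only through the libraries of laminae I–II. Their direction was thus largely fixed by the filter, and the shares and medians of the members are a description and not a test of the set.

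**Figure D1:**
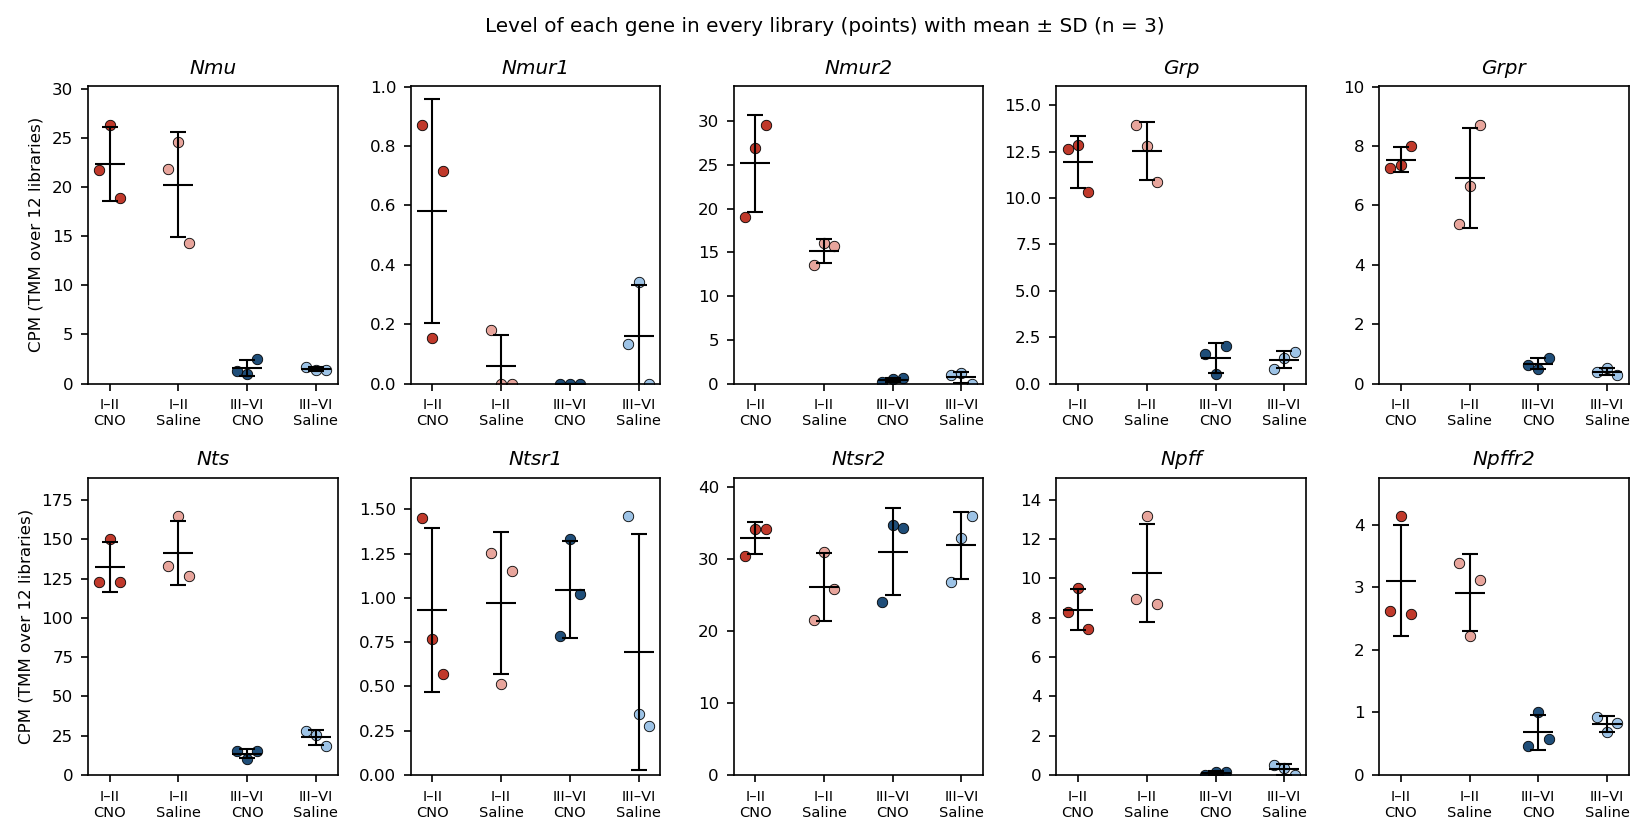
Level of each of the 10 genes in CPM in every library (points), by layer and treatment, with the mean and SD (n = 3), each panel on its own axis from 0. In 7 genes the libraries of laminae I–II lie above all those of laminae III–VI, whereas Ntsr2, Ntsr1 and Nmur1 overlap.

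Among the ligands, Npff had the widest gap. Its lowest, median and highest levels were 7.44, 8.82 and 13.2 CPM in laminae I–II, against 0, 0.156 and 0.531 CPM in laminae III–VI. Counts lay between 50 and 77 a library in the superficial layer, whereas the deep layer held 8 counts in all 6 libraries together. The log2 difference was 5.40 ± 0.31 (SE; 42.2-fold, 95% interval 27.1 to 65.8, edgeR adjusted p = 4.41e-13).

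Nmu, whose peptide acts on Nmur1 and Nmur2, had a lowest, median and highest level of 14.3, 21.8 and 26.3 CPM in laminae I–II, against 1.00, 1.38 and 2.48 CPM in laminae III–VI. Within the 6 rats the ratio of the layers lay between 7.62 and 26.3, with no overlap between the layers. On the log2 scale the difference was 3.74 ± 0.16 (SE; 13.4-fold, 95% interval 10.6 to 16.8, edgeR adjusted p = 2.91e-15).

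Grp had a lowest, median and highest level of 10.3, 12.7 and 13.9 CPM in laminae I–II, against 0.500, 1.47 and 2.04 CPM in laminae III–VI. The 6 superficial libraries were close together, with a coefficient of variation of 11.2%, about that of counting alone (11.4%). This gave a log2 difference of 3.18 ± 0.20 (SE; 9.04-fold, 95% interval 6.74 to 12.1, edgeR adjusted p = 3.77e-12).

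Nts had 743 to 983 counts a library in laminae I–II and 63 to 209 in laminae III–VI, so that it was well counted in both layers. The lowest, median and highest levels were 123, 129.7 and 165 CPM in laminae I–II, against 10.5, 17.1 and 27.7 CPM in laminae III–VI. Between the layers the log2 difference was 2.86 ± 0.10 (SE; 7.25-fold, 95% interval 6.27 to 8.37, edgeR adjusted p = 8.34e-17).

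Nmur2, the receptor of neuromedin U in the central nervous system, had few counts in the deep layer. The lowest, median and highest levels were 13.6, 17.5 and 29.6 CPM in laminae I–II, against 0, 0.542 and 1.20 CPM in laminae III–VI, where 22 counts were found in 6 libraries against 780. The log2 difference was 5.12 ± 0.24 (SE; 34.9-fold, 95% interval 24.7 to 49.3, edgeR adjusted p = 1.24e-14).

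Grpr, the receptor of gastrin-releasing peptide, had a lowest, median and highest level of 5.36, 7.31 and 8.71 CPM in laminae I–II, against 0.279, 0.507 and 0.875 CPM in laminae III–VI. The log2 difference was 3.72 ± 0.24 (SE; 13.2-fold, 95% interval 9.31 to 18.7, edgeR adjusted p = 4.97e-12). Npffr2, the receptor of neuropeptide FF, had the smallest gap of the 7 genes, at 2.22, 2.87 and 4.13 CPM in laminae I–II, against 0.471, 0.761 and 1.00 CPM in laminae III–VI. The log2 difference was 1.98 ± 0.27 (SE; 3.94-fold, 95% interval 2.67 to 5.82, edgeR adjusted p = 1.12e-06), and within the 6 rats the ratio lay between 3.24 and 5.55.

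Ordered by the size of the difference, the genes ran Npff, Nmur2, Nmu, Grpr, Grp, Nts and Npffr2. The intervals of Npff and Nmur2 overlapped, as did those of Nmu, Grpr and Grp and those of Grp and Nts, whereas Nmur2 lay above Nmu and Nts lay above Npffr2 with no overlap of intervals. Npff and its receptor Npffr2 thus stood at opposite ends of the order.

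**Figure D2:**
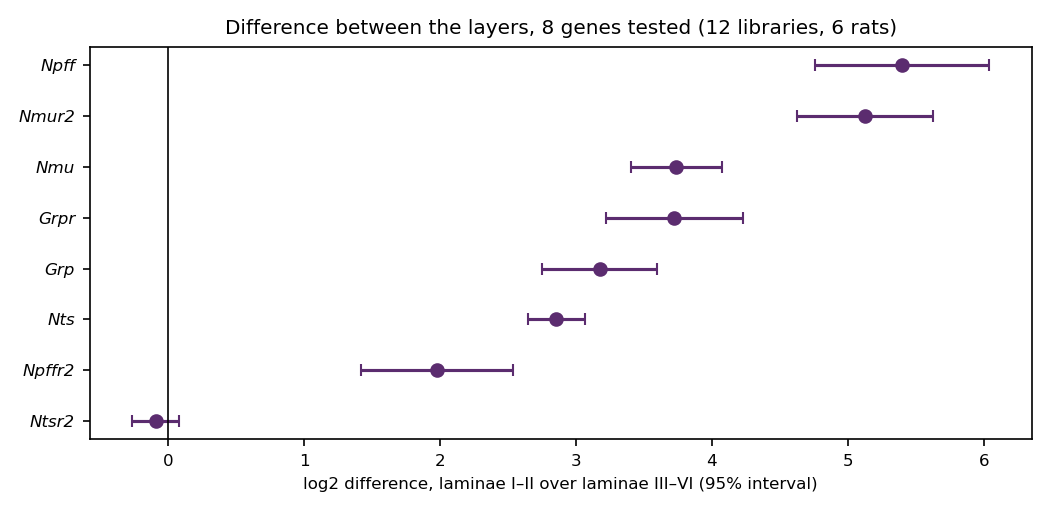
Log2 difference between the layers for the 8 tested genes, laminae I–II over laminae III–VI, with 95% intervals from the edgeR fit of 12 libraries with a term for each of 6 rats. The 7 genes to the right of 0 range between 1.98 (Npffr2) and 5.40 (Npff), and the interval of Ntsr2 spans 0.

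Ntsr2, the low-affinity neurotensin receptor, was present at similar levels in both layers. The lowest, median and highest levels were 21.4, 30.6 and 34.2 CPM in laminae I–II, against 24.0, 33.6 and 35.9 CPM in laminae III–VI, and the ranges overlapped. Its log2 difference was -0.09 ± 0.08 (SE; 95% interval -0.26 to 0.08, edgeR adjusted p = 0.351), and its sign turned to 0.09 with library totals only. Fitted in the CNO rats alone the difference was 0.10 (adjusted p = 0.404), and in the Saline rats alone it was -0.29 (adjusted p = 0.0270). The difference between these was not past the threshold (0.39 ± 0.14 on the log2 scale, SE, edgeR adjusted p = 0.338).

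Nmur1 and Ntsr1 were close to the limit of detection. Nmur1, the receptor of neuromedin U known mainly from peripheral tissue, had 6, 1 and 5 counts in laminae I–II after CNO, against 1, 0 and 0 counts after Saline. In laminae III–VI it had 0 counts in all 3 CNO libraries together (exact 95% Poisson interval 0 to 3.69, counting error only), against 3 counts in the Saline libraries. Ntsr1, the high-affinity neurotensin receptor, had 36 counts in laminae I–II and 35 counts in laminae III–VI, and its annotated span overlaps Ogfr and NEWGENE_1308612 on the same strand, so its counts are uncertain. Neither gene passed the low-count filter, and no difference is read from them.

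In the rn6 coordinates of the deposited tables Npff lies at chr7:144127085-144127873 and Nts at chr7:44111151-44121130, both on the minus strand. Nmu lies at chr14:34354503-34381828 on the plus strand and Npffr2 at chr14:20148913-20193083 on the minus strand. Grp lies at chr18:61563053-61576818 and Ntsr1 at chr3:175885894-176046345, both on the plus strand, and Nmur1 at chr9:93403314-93404883 on the minus strand. Nmur2 lies at chr10:41392666-41408518 on the minus strand, Ntsr2 at chr6:41917132-41923542 on the plus strand and Grpr at chrX:32745873-32786359 on the plus strand. Counts are per gene, so exons, introns and UTRs were not separated.

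CNO was compared with Saline to ask whether activation of OT neurons was followed by changes of these transcripts in either layer. In laminae I–II 8 members were tested among 13344 genes, and 0 passed an edgeR adjusted p of 0.05, where 0.142% of all tested genes did. At an unadjusted p under 0.05 there were 2, Nmur2 and Ntsr2, where 7.05% of all tested genes were. DESeq2 and limma-voom also called 0, and the edgeR exact test called 1, Nmur2. In 1 of the 8, Nmur2, every CNO library lay above every Saline library, which held for 6.74% of all tested genes.

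Nmur2 had 131, 176 and 207 counts in the CNO libraries, against 76, 94 and 96 counts in the Saline libraries of laminae I–II. In CPM these were 19.0, 26.9 and 29.6 after CNO, against 13.6, 16.1 and 15.8 after Saline, with the CNO libraries higher and no overlap. The level averaged 25.2 ± 5.51 CPM after CNO and 15.1 ± 1.36 CPM after Saline (SD, n = 3 each). The log2 fold change was 0.72 ± 0.15 (SE; 95% interval 0.40 to 1.05), with an unadjusted p of 0.000174 and an edgeR adjusted p of 0.101. The call depended on the setting. It missed under 12 of 16 alternatives, with an adjusted p of up to 0.671, and passed under 4, with an adjusted p that was among others 0.0149 without CNO replicate 1, 4.54e-05 with no low-count filter and 0.00741 by the edgeR exact test.

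Markers of other cells differed between the same libraries. Prx, Pmp22 and Pmp2, genes of Schwann cells, fell after CNO, and the Schwann cell list summed to 113 to 180.2 CPM after CNO, against 308 to 635 CPM after Saline. Of 7 tested genes of fibroblasts and meninges 2 fell, Dcn and Col14a1. That list summed to 99.6 to 107 CPM after CNO (median 104), against 106 to 447 CPM after Saline (median 130). The ranges overlapped, and the sum of 447 CPM came from 1 library. The excitatory neuron list summed to 1582 to 1866 CPM after CNO, against 1499 to 1700.2 CPM after Saline, and of its 14 tested genes 0 rose and 1 fell, Gpr83, a G protein-coupled receptor (log2 fold change -0.75, edgeR adjusted p = 0.00972). None of the Schwann cell or fibroblast genes was at 0 in all libraries of a group of laminae I–II, and the part of these differences in the Nmur2 values was not tested.

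Ntsr2 was at 30.3, 34.1 and 34.2 CPM after CNO, against 21.4, 30.9 and 25.8 CPM after Saline in laminae I–II, and the groups overlapped between the lowest CNO library and the highest Saline library. The log2 fold change was 0.32 ± 0.12 (SE; 95% interval 0.06 to 0.58, unadjusted p = 0.0170, edgeR adjusted p = 0.586). Summed over 13 astrocyte markers, the same libraries held 9945 to 10173 CPM after CNO, against 8649.6 to 10025 CPM after Saline, and 0 of these markers passed the test in this layer. The part of the astrocyte sum in the Ntsr2 values was not tested.

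The other 6 tested genes of laminae I–II had overlapping groups. Nts averaged 132 ± 15.9 CPM after CNO and 141 ± 20.4 CPM after Saline, with a log2 fold change of -0.11 (95% interval -0.31 to 0.09). Nmu averaged 22.3 ± 3.76 CPM after CNO and 20.2 ± 5.33 CPM after Saline, and Grp 11.9 ± 1.42 CPM after CNO and 12.5 ± 1.56 CPM after Saline (SD, n = 3 each). Npff averaged 8.40 ± 1.03 CPM after CNO and 10.3 ± 2.50 CPM after Saline. Their intervals on the log2 scale ran between -0.22 and 0.48 for Nmu, -0.42 and 0.26 for Grp, and -0.72 and 0.12 for Npff. Grpr (0.11, 95% interval -0.34 to 0.56) and Npffr2 (0.08, 95% interval -0.59 to 0.75) also had intervals that spanned 0. A change of 2-fold lay outside all 6 intervals. The widest, that of Npffr2, came with 13 to 27 counts a library.

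**Figure D3:**
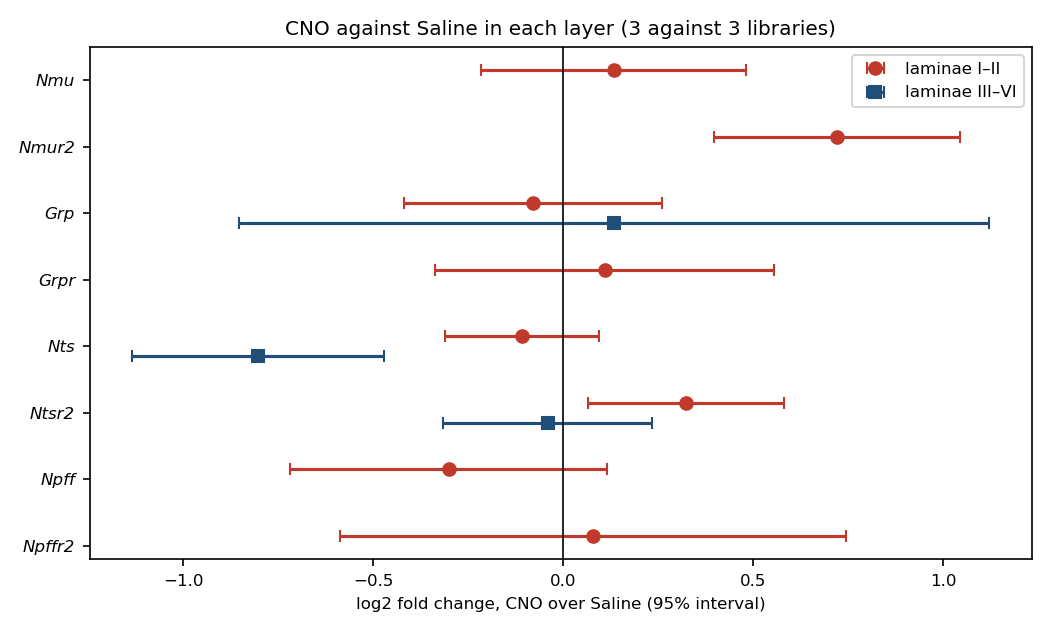
Log2 fold change of CNO over Saline with 95% intervals in laminae I–II (red circles, 8 genes) and laminae III–VI (blue squares, the 3 genes with enough counts), from edgeR fits of 3 against 3 libraries. Nmur2 (0.72) and Ntsr2 (0.32) lie right of 0 in laminae I–II, and Nts (-0.80) lies left of 0 in laminae III–VI.

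In laminae III–VI the peptide Nts was lower after CNO, to about 0.573 of the Saline level. Of 13117 genes tested, 3 were members (Nts, Grp and Ntsr2), and 1 of them, Nts, fell at an edgeR adjusted p under 0.05, where 0.0534% of all tested genes fell and 0.137% changed in either direction. It was also the 1 member with an unadjusted p under 0.05, where 9.24% of all tested genes were. The counts were 96, 63 and 106 in the CNO libraries, against 209, 148 and 134 in the Saline libraries. In CPM these were 15.1, 10.5 and 15.5 after CNO, against 27.7, 25.3 and 18.7 after Saline, so that every CNO library lay below every Saline library, which held for 6.75% of all tested genes. The level averaged 13.7 ± 2.75 CPM after CNO and 23.9 ± 4.68 CPM after Saline (SD, n = 3 each). The log2 fold change was -0.80 ± 0.16 (SE; 95% interval -1.13 to -0.47, unadjusted p = 6.00e-05, edgeR adjusted p = 0.0463).

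The call on Nts stood near its threshold. It was lost when any CNO library was left out (adjusted p = 0.0962, 0.215 and 0.116 without CNO replicates 1, 2 and 3) and without Saline replicate 1 (0.425) or Saline replicate 2 (0.140), and held without Saline replicate 3 (0.00237). The log2 fold change stayed between -0.95 and -0.65 in these fits. It was also lost with limma-voom (0.0895), with limma on the quantile-normalized counts (0.612) and in the fit of all 12 libraries (0.126), whereas DESeq2 gave an unadjusted p of 3.88e-05 and no adjusted p.

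The other superficial ligands overlapped between the treatments in the deep samples. Npff, with 8 counts in all, was at 0.104 ± 0.0908 CPM after CNO and 0.291 ± 0.269 CPM after Saline. Nmu was at 1.58 ± 0.790 CPM after CNO and 1.497 ± 0.198 CPM after Saline, and Grp at 1.37 ± 0.789 CPM after CNO and 1.28 ± 0.446 CPM after Saline (SD, n = 3 each). The superficial marker list summed to 661 to 798 CPM after CNO, against 618 to 817 CPM after Saline, with 0 of 8 tested genes past the threshold. Its log2 fold changes were negative in 6 genes and positive in 2, with a median of -0.10, against -0.0051 over all tested genes. Calb2, which was not called between the layers, made up the largest part of the sum, at 421 ± 81.3 CPM after CNO and 344 ± 147 CPM after Saline. The deep marker list summed to 5475 to 6402 CPM after CNO, against 4029 to 4806 CPM after Saline, and 1 of its 6 genes rose, Nefh, a neurofilament of large neurons (log2 fold change 0.50, edgeR adjusted p = 0.0109). Of 5 tested genes of primary sensory neurons 1 rose, Prph, an intermediate filament that motoneurons hold too (0.81, edgeR adjusted p = 0.0294), and that list summed to 44.3 to 75.4 CPM after CNO, against 34.2 to 45.7 CPM after Saline, with Mrgprd at 0 in all 3 CNO libraries. The part of these marker differences in the Nts values was not tested.

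Ntsr2 in laminae III–VI averaged 31.0 ± 6.04 CPM after CNO and 31.9 ± 4.62 CPM after Saline (SD, n = 3 each; log2 fold change -0.04, 95% interval -0.32 to 0.23, edgeR adjusted p = 0.954). For Grp the interval was wide (0.13, 95% interval -0.85 to 1.12). The other 7 genes had between 0 and 17 counts a library in this layer, and their groups overlapped.

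Within a rat, the ratio of the Nts level in laminae I–II to that in laminae III–VI was 8.16, 14.3 and 7.96 in the CNO rats, against 4.79, 6.50 and 6.76 in the Saline rats. Every CNO rat had the higher ratio. The CNO effect in laminae I–II minus that in laminae III–VI, tested as an interaction over 13745 genes, was 0.70 ± 0.17 on the log2 scale (SE; 95% interval 0.36 to 1.04, unadjusted p = 0.000286, edgeR adjusted p = 0.0587). It passed under 4 of 10 alternatives, which were those without CNO replicate 1 (adjusted p = 0.0492), without Saline replicate 3 (0.0261), with library totals only (0.0423) and with no low-count filter (7.37e-05). It missed under the other 6, with an adjusted p of up to 0.627, and the difference lay between 0.46 and 0.85 over the 10. Of the 8 members tested 0 passed, where 0.429% of all tested genes did, and 2 (Nts and Ntsr2) had an unadjusted p under 0.05, where 9.26% of all tested genes did. DESeq2 gave no adjusted p for the 8 and an unadjusted p under 0.05 for 1, Nts (0.0281). The Nmur2 effect, at 1.44 ± 0.72 (SE, edgeR adjusted p = 0.558), rested in the deep layer on 8 counts after CNO and 14 counts after Saline, and was not shown to differ between the layers.

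**Figure D4:**
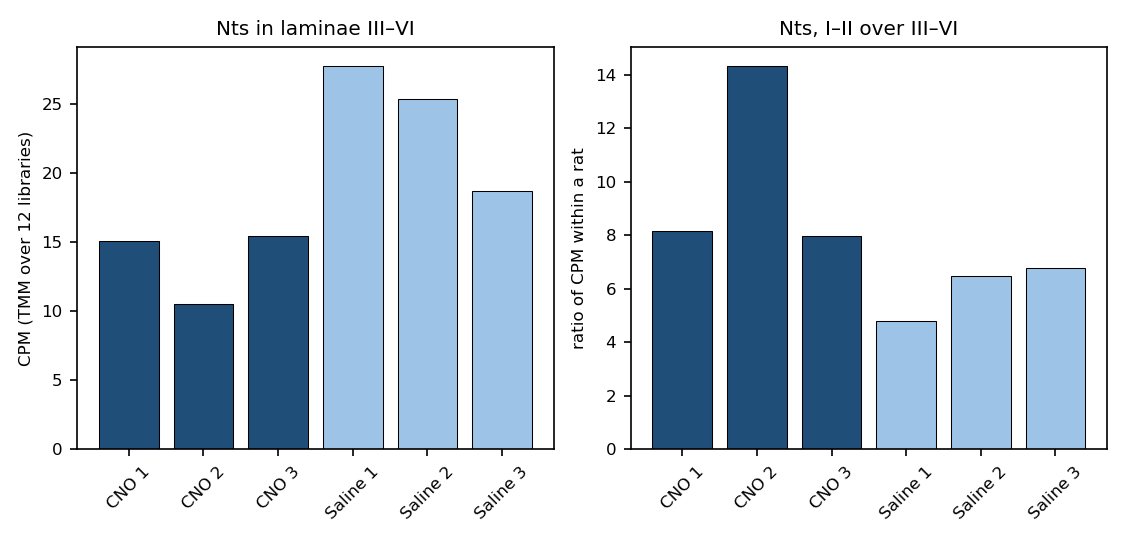
Nts in each of the 6 rats, as the level in laminae III–VI (left, CPM) and as the ratio of laminae I–II to laminae III–VI (right), CNO rats in dark and Saline rats in pale blue, with bars from 0. The 3 CNO rats lie between 10.5 and 15.5 CPM in the deep layer, below the 3 Saline rats, and between 7.96 and 14.3 in the ratio, above them.

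**Figure D5:**
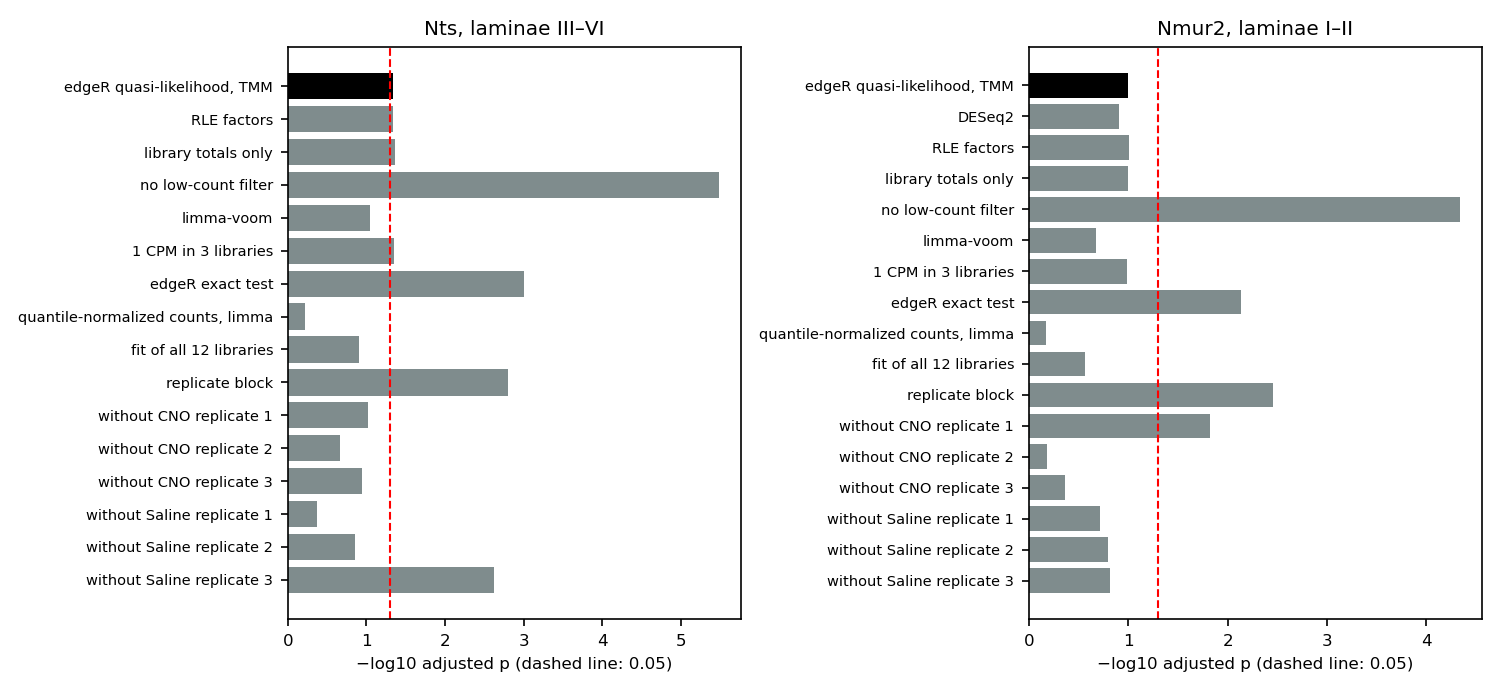
Adjusted p of Nts in laminae III–VI (left) and of Nmur2 in laminae I–II (right), CNO against Saline, as −log10 under each way of processing, with the dashed line at 0.05 and the black bar the edgeR quasi-likelihood test with TMM. Nts passed under 7 alternatives and missed under 8, and Nmur2 passed under 4 and missed under 12.

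Few relatives of these peptide systems had enough counts. Of 12 measured relatives 3 were tested, and 2 were higher in laminae I–II. Qrfpr, a receptor related to those of neuropeptide FF, was at 2.72 ± 1.25 CPM in laminae I–II, against 0.229 ± 0.153 CPM in laminae III–VI, and Nmbr, the receptor of neuromedin B and a relative of Grpr, was at 5.13 ± 0.811 CPM in laminae I–II, against 2.95 ± 0.334 CPM in laminae III–VI (SD, n = 6 each). Sort1, the sorting receptor that also binds neurotensin, was lower in laminae I–II (386 ± 30.2 CPM) than in laminae III–VI (599 ± 34.4 CPM; log2 difference -0.63, edgeR adjusted p = 2.24e-13). None of the 3 passed the CNO comparison in a layer where it was tested, with unadjusted p-values between 0.226 and 0.889.

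The signalling genes downstream of the receptors are set beside the 30.8% of all tested genes that were higher in laminae I–II and the 61.6% that differed in either direction. Of 11 tested genes of Gq signalling 7 were higher in laminae I–II and 0 lower, with a median log2 difference of 0.46, and they included Itpr1, a calcium channel of internal stores (0.61), Plcb1 (0.48), Gnaq (0.46) and Itpr3 (0.84). Of 9 tested genes of Gi and Go signalling 8 were higher and 0 lower, with a median of 0.50, among them Gnai2 (0.79), Gnao1 (0.30) and the inward rectifier channels Kcnj6 (0.83) and Kcnj3 (0.66). Of 8 tested peptidases 4 were higher and 1 lower, a share called close to that of all tested genes, the higher ones including Mme, the neprilysin that cleaves neuropeptides (1.43), Ece1 (0.56) and Ece2 (0.25), and the lower one being Ace (-0.86). After CNO 0 genes of these 3 lists passed in either layer by the edgeR quasi-likelihood test, and in laminae I–II 1 of the Gq list (Itpr1), 1 of the Gi list (Kcnj9) and 1 of the peptidases (Mme) had an unadjusted p under 0.05, as had 1 of the Gq list (Gnaq) in laminae III–VI, and nothing is read from these counts, since 7.05% of all tested genes did so in laminae I–II, against 9.24% of those in laminae III–VI.

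Genes whose levels followed those of a member most closely over the 12 libraries were ranked by the root mean square difference of mean-centred log2 CPM, among 11269 candidates. For Nts they were Npy1r, a neuropeptide Y receptor (0.24), Ebf3 (0.28) and Stx1a (0.28), against a median of 1.51 over all candidates. For Nmu they were Drgx (0.35), Frzb (0.38) and Rasal1 (0.38), and for Grp they included Bnc2 (0.40) and Frzb (0.41), with medians of 1.82 and 1.58 over all candidates. For Nmur2 they were Ebf2 (0.54), Prss12 (0.61) and Pde11a (0.64), against a median of 2.44, and for Ntsr2 they were Rin3 (0.12), Mrpl52 (0.13) and Tmem141 (0.14), against a median of 0.30. All of these patterns include the difference between the layers, and the 12 libraries come from 6 rats.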

How the data were processed

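The authors sequenced ribosomal RNA-depleted total RNA of microdissected tissue, paired-end, with a stranded kit, and mapped the reads to rn6 in CLC Genomics Workbench. The deposited tables give total read counts of 32623 genes, whether strand was used in counting not being stated. A further deposited column holds quantile-normalized counts, a signal computed over the 6 libraries of each layer and used here only as an alternative, and columns of the authors' own test (fold change and p-values) were not used.

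Raw counts of 12 libraries were fitted with edgeR 4.0.16 (quasi-likelihood, TMM, filterByExpr with a minimum count of 10 and minimum total of 15, Benjamini-Hochberg over all tested genes, called at 0.05) in R 4.3.3. CNO was compared with Saline within each layer, as the authors did. The layers and the interaction were fitted over 12 libraries with a term for each rat, since the study describes 3 rats a treatment for the dissected layers and the labels number the libraries alike in both; libraries of the same treatment and number correlated between the layers at 0.100 to 0.172 in their deviations from the group means. Standard errors and 95% intervals come from the fold change and its F statistic. An exact permutation test of 3 against 3 cannot go below 0.1, so none was used for single genes. Replicate libraries differed by more than counting noise. In the CNO comparisons p-values measure the spread between 3 libraries, taken as 3 rats, a treatment. In the layer and interaction fits they measure the spread of the differences between the layers within rats. In each fit the spread of a gene was moderated by that of the other tested genes.

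The members and the other lists (14 lists, 130 entries, 5 not measured) were chosen with earlier results of these data known. All members are named, and of other lists up to 4 called genes with the smallest p, and the 3 genes nearest in pattern to members of at least 5 CPM (prior count 2). Itpr1, Kcnj9, Mme and Gnaq in the CNO comparisons were named after their values were seen, as were Mrgprd, Slc17a6, Calb2 and the genes that overlap Ntsr1. Alternatives were DESeq2 1.42.0, the edgeR exact test, limma 3.58.1 (voom, or log2 of quantile-normalized counts plus 1), RLE factors, library totals only, no low-count filter, 1 CPM in 3 libraries, other blocks, and leaving out each rat. Some genes that the rule would name are not reported here. The steps were tested on simulated data. Motifs and figures were made with Python 3.11.15.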

Additional observations from a re-analysis of the deposited data

How the results depend on the processing

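Of 373 alternative values of 27 results on single members, 337 kept their direction and side of the threshold, 8 lost and 9 gained a call, and 19 turned sign, none of them called on either side. The 7 members higher in laminae I–II were called under every alternative run, with 7 called without any 1 rat. Library totals only in place of TMM moved the median log2 difference of all genes between the layers to 0.19, against 0.02, and the share of called genes higher in laminae I–II to 72.0%, against 50.0%. With library totals only Ntsr2 stood at 0.088 between the layers. In a separate fit of the CNO rats only, with TMM, it stood at 0.096.

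The count of members changed by CNO in laminae I–II was 1 (Nmur2) with no low-count filter, with the edgeR exact test and with the number as a replicate block, and 0 to 1 when a library was left out. Under that block the adjusted p of Nmur2 was 0.00346 and the count of all called genes was 78, against 19. The same numbers name different rats in the treatments. Libraries of the same number correlated at 0.0193 to 0.113 within a layer, against 0.100 to 0.172 between the layers of a rat, and these ranges overlap. Whether such libraries share more than a number was not tested. In laminae III–VI the block kept Nts (194 genes called, against 18). There the count of members was 0 with limma-voom, with limma on quantile-normalized counts and in the fit of all 12 libraries, and 0 to 1 when a library was left out. DESeq2 gave members of laminae III–VI and of the interaction no adjusted p. The count of members whose CNO effect differed between the layers was 1 (Nts) with library totals only and with no low-count filter, and 0 to 1 when a rat was left out. With no replicate block for the rat it was 0, and 2 of all genes were called, against 59. Over all genes the CNO calls in laminae I–II, 19 as reported, were 131 with no low-count filter, 41 with the exact test, 9 with DESeq2, 0 with limma on quantile-normalized counts and 3 to 29 with a library left out. In laminae III–VI, 18 as reported, they were 112 with no filter, 46 with the exact test, 0 with limma on quantile-normalized counts and in the fit of all 12 libraries, and 0 to 93 with a library left out. Interaction calls, 59 as reported, were 164 with no filter, 23 with DESeq2 and 14 to 71 with a rat left out. The cause of these changes was not tested.

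Other signs turned only when a library was left out. The log2 fold change of CNO in laminae I–II lay between -0.069 and 0.31 for Nmu, -0.18 and 0.020 for Grp, -0.21 and 0.021 for Nts, -0.041 and 0.31 for Grpr, and -0.18 and 0.20 for Npffr2. In laminae III–VI it lay between -0.27 and 0.50 for Grp and between -0.16 and 0.12 for Ntsr2. The interaction lay between -0.30 and 0.67 for Nmu and between -0.64 and 0.30 for Grp. Depth limits Nmur1 and Ntsr1 in both layers and 7 genes in laminae III–VI.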
